A study of Saccharomyces cerevisiae with 24 samples.

Results

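A set of 8 genes of leucine and branched-chain amino acid synthesis, *LEU1*, *BAT1*, *OAC1*, *LEU4*, *LEU9*, *ILV2*, *ILV5* and the regulator gene *LEU3*, were followed through 9 groups of yeast strains whose RNAPII carries CTDs of different lengths. The 8 members were the gene probes whose symbol in the platform annotation is one of these names, 8 of 6388 gene probes, of which 5326 have a gene name. Each member was measured by 1 probe spotted 2 times per array, and their locus tags are YGL009C, YHR208W, YKL120W, YNL104C, YOR108W, YMR108W, YLR355C and YLR451W in the order above. The labels give *S. cerevisiae* BY4742, an alpha laboratory strain that lacks *LEU2*, for every sample, although the groups differed at the marker genes *LYS2* and *MET17* (values below) and which set of the study's truncation strains was arrayed is not stated. Cells were grown in synthetic complete medium with 2% glucose at 30 °C and collected in mid-log phase. The groups were wild type (8 arrays) and, with 2 arrays each, a wild type whose label reads 330 rpm (the protocol text has 230 rpm throughout), *RPB1-CTDWT* with the full-length CTD of 26 repeats and the integrated NAT resistance marker, the truncations *rpb1-CTD20* and *rpb1-CTD13* and the shorter *rpb1-CTD12* and *rpb1-CTD11*, all with the same marker after an introduced stop codon, and the double mutants *rpb1-CTD12 cdk8Δ* and *rpb1-CTD11 cdk8Δ*. On every array the RNA of a sample in one dye was hybridized with a common reference RNA from a single wild type culture in the other, and the dyes were exchanged between the a and the b array of a group. The a and b arrays of a mutant came from separate cultures, while the labels do not say how many cultures stand behind the 8 wild type arrays or how many isolates were kept of each mutant, so the p values measure the spread between these arrays.

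The branched-chain amino acids leucine, valine and isoleucine are made largely in mitochondria by a shared set of enzymes. Acetolactate synthase, whose catalytic subunit is Ilv2, and the reductoisomerase Ilv5 act in the common stem. Leu4 and its isozyme Leu9 then make alpha-isopropylmalate, the carrier Oac1 passes this intermediate through the inner mitochondrial membrane, the isomerase Leu1 and the dehydrogenase Leu2 continue the leucine branch in the cytosol, and the mitochondrial transaminase Bat1 and the cytosolic Bat2 form the amino acids. Leu3 is a zinc cluster protein bound at promoters of the pathway that activates them when it has bound alpha-isopropylmalate and represses them when it has not. The general amino acid regulator Gcn4 activates many of the same genes.

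All values below are log2 ratios of sample over reference, on which a difference of -1 is a 2-fold lower ratio, and values of single arrays are given after the fitted effect of the dye on that probe was removed. Between 86.1% and 98.6% of the gene probes were above the background of the array, taken as percentile 99 of its empty spots. The 8 members were above it on 24 of 24 arrays, at signals of at least 3.22 times that limit. *SSN3*, the gene of Cdk8, was above background on 0 of the 4 double mutant arrays and on every other array. *RPO21*, the gene of the CTD-bearing subunit Rpb1, was lower than wild type at all of 13, 12 and 11 repeats and in *RPB1-CTDWT*, which keeps all its repeats, and differed by -0.34 (adjusted p = 0.29) at 20.

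*LEU1*, *OAC1* and *BAT1* fell when the CTD was shortened to 12 or 11 repeats, with log2 differences from wild type between -0.75 and -1.35, and *LEU9* fell with them. Of the 8 members, 4 were lower and 1 was higher than wild type in *rpb1-CTD11* at an adjusted p under 0.01, where 24.9% of all gene probes were lower and 24.3% higher. In *rpb1-CTD12*, 4 were lower and 0 higher, against 17.4% and 18.6% of all probes. With the fold change over 1.7 that the study added to call a gene decreased, 3 members were decreased in *rpb1-CTD11* (*LEU1*, *OAC1* and *BAT1*) where 1.49% of all probes were, and 2 in *rpb1-CTD12* (*LEU1* and *OAC1*) where 0.642% were. The median of the 8 members was -0.39 in *rpb1-CTD11* and -0.40 in *rpb1-CTD12*, and the median of all gene probes was 0.00 in both. These arrays measure RNA relative to the bulk of the culture, so that less RNA per cell and fewer cells with the transcript cannot be told apart.

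**Figure D1:**
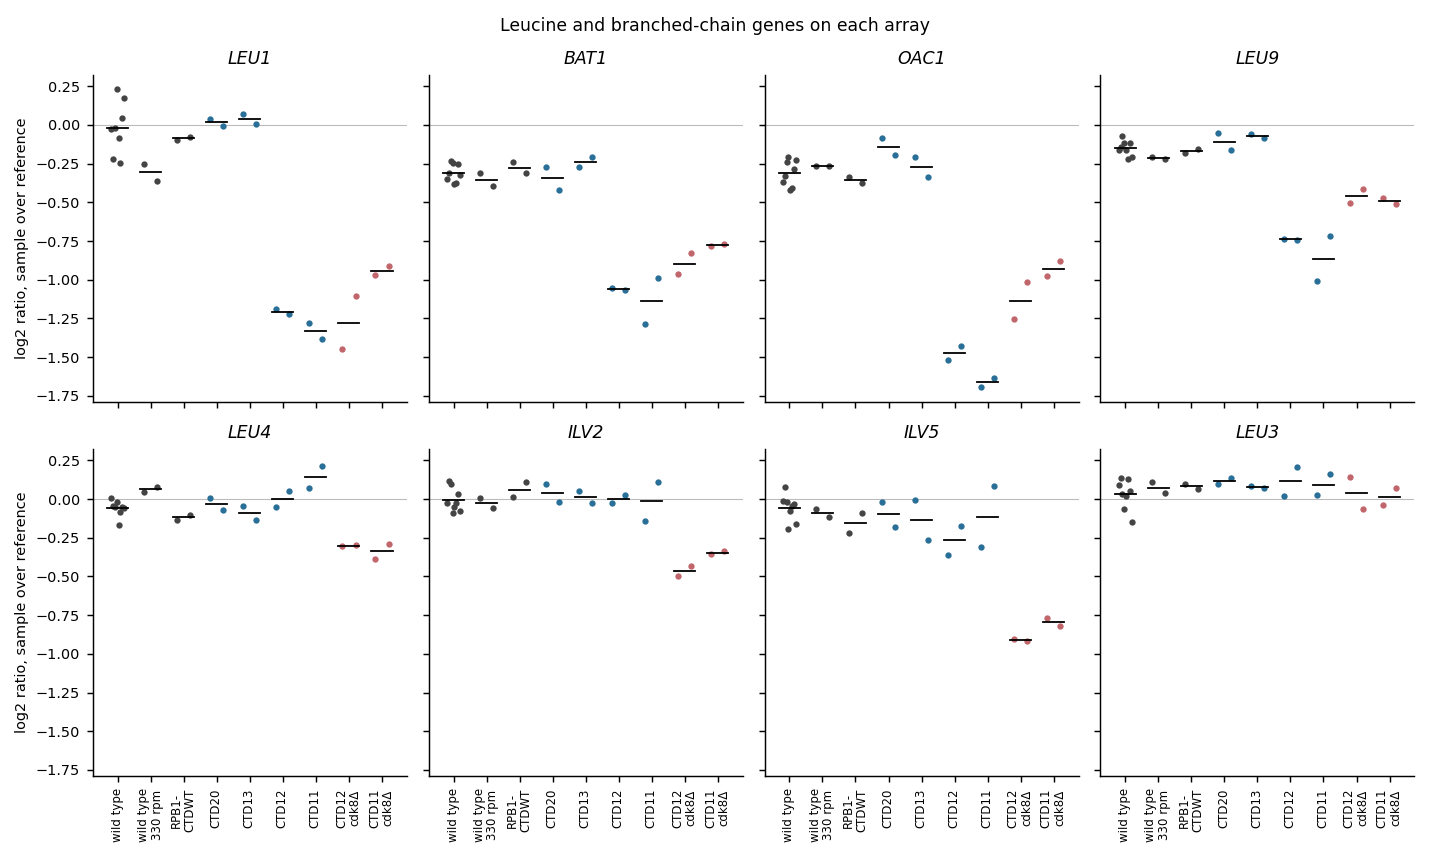
Log2 ratio of sample over reference for each of the 8 genes (y axis) on every array, by group (x axis), with the probe's dye effect removed. Points are arrays, black bars are group means, grey points are strains with a full-length CTD, blue points truncations and red points double mutants. *LEU1*, *BAT1*, *OAC1* and *LEU9* drop at 12 and 11 repeats, *LEU4*, *ILV2* and *ILV5* are lowest in the double mutants, and *LEU3* stays between -0.15 and 0.21 on all 24 arrays.

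*LEU1*, the cytosolic isopropylmalate isomerase, ranged from -0.25 to 0.23 on the 8 wild type arrays, with a median of -0.02. It was at -1.28 and -1.38 on the a and b array of *rpb1-CTD11* and at -1.19 and -1.22 in *rpb1-CTD12*. All 4 of these values lay below the lowest wild type array. The difference from wild type was -1.31 ± 0.10 (SE, 2.48-fold, adjusted p = 2.7e-09) in *rpb1-CTD11*, rank 21 of 6388 probes from the lowest, and -1.19 ± 0.10 (2.28-fold, adjusted p = 3.1e-08) in *rpb1-CTD12*.

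*OAC1*, the mitochondrial carrier of oxaloacetate and isopropylmalate, was between -0.42 and -0.21 in wild type, with a median of -0.31. It was at -1.69 and -1.64 in *rpb1-CTD11* and at -1.52 and -1.43 in *rpb1-CTD12*, far below every wild type array. It had the lowest value of the 8 members in *rpb1-CTD11*, with a difference of -1.35 ± 0.06 (2.55-fold, adjusted p = 3.1e-12). In *rpb1-CTD12* its difference was -1.16 ± 0.06 (2.24-fold, adjusted p = 1.3e-10).

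*BAT1*, the mitochondrial transaminase, was between -0.38 and -0.23 in wild type with a median of -0.32, at -1.29 and -0.99 in *rpb1-CTD11*, and at -1.05 and -1.07 in *rpb1-CTD12*. No array of these truncations overlapped wild type. The difference was -0.83 ± 0.06 (1.78-fold, adjusted p = 2.1e-09) in *rpb1-CTD11* and -0.75 ± 0.06 (1.68-fold, adjusted p = 2.4e-08) in *rpb1-CTD12*, so that *BAT1* lay on either side of the 1.7-fold threshold in strains between which its difference did not pass (-0.08 ± 0.08). Its cytosolic counterpart *BAT2* had differences of -0.11 and -0.09, with adjusted p of 0.16 and 0.28.

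The isopropylmalate synthases *LEU4* and *LEU9*, which catalyse the same step, were not both lowered in the short CTD strains: *LEU9* fell at both lengths and *LEU4* at neither. *LEU9* was between -0.22 and -0.07 in wild type with a median of -0.15, at -1.01 and -0.72 in *rpb1-CTD11*, and at -0.74 and -0.74 in *rpb1-CTD12*. *LEU4*, the main isozyme, was between -0.17 and 0.01 in wild type with a median of -0.05, at 0.07 and 0.22 in *rpb1-CTD11*, and at -0.05 and 0.05 in *rpb1-CTD12*. *LEU9* thus lay below wild type on all 4 truncation arrays, while *LEU4* overlapped wild type at 12 repeats and lay just above it at 11. The difference was -0.71 ± 0.05 (adjusted p = 2.3e-09) and -0.59 ± 0.05 (adjusted p = 8.8e-08) for *LEU9*, and 0.20 ± 0.05 (adjusted p = 0.00093) and 0.06 ± 0.05 (adjusted p = 0.32) for *LEU4*. The call of *LEU4* as higher in *rpb1-CTD11* held in 8 of 12 alternatives of processing, fit or control. It was lost against wild type 330 rpm, where the difference was 0.08 (adjusted p = 0.28), and with median centring (0.185, adjusted p = 0.051). Scaled on the spiked-in control spots, the difference was 0.145 (adjusted p = 0.68). The rise was also not called without the b array of that strain, where it was 0.12.

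Taken within each array, *LEU9* minus *LEU4* was between -0.17 and 0.01 on the wild type arrays, -1.08 and -0.93 in *rpb1-CTD11* and -0.68 and -0.79 in *rpb1-CTD12*. The difference of this measure from wild type was -0.92 at 11 repeats and -0.65 at 12, and an exact two-sided permutation test over the arrays gave p = 0.0222 for each, the smallest value that 2 against 8 arrays allow. Over the 5 strains compared with wild type the adjusted p was 0.0555 for each of the 2. An adjusted p under 0.01 was out of reach of this design, and the comparison was chosen after the values were seen. The test also took the 8 wild type arrays as independent. Their titles group them in sets k1, k2 and k3, with a correlation over all probes of 0.362 within sets. At 13 repeats the measure was -0.01 and 0.05. *LEU4* and *LEU9* are paralogs, as are *BAT1* and *BAT2*, and cross-hybridization between their probes was not tested.

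The members of the common stem and the regulator gene did not pass the test in the truncations. *ILV5*, the reductoisomerase, was between -0.19 and 0.08 in wild type, at -0.31 and 0.08 in *rpb1-CTD11*, and at -0.36 and -0.17 in *rpb1-CTD12*. The a array of each lay below the wild type range and the b array within or at its edge, and the differences were -0.06 ± 0.09 (adjusted p = 0.59) and -0.21 ± 0.09 (adjusted p = 0.054). *ILV2*, the acetolactate synthase subunit, differed by -0.01 ± 0.06 and 0.00 ± 0.06 (95% confidence interval -0.14 to 0.12 and -0.13 to 0.13). *LEU3* differed by 0.06 ± 0.07 and 0.08 ± 0.07 (95% confidence interval -0.08 to 0.21 and -0.06 to 0.23), so that a change of the size seen in *LEU9* lies outside its interval in both strains.

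**Figure D2:**
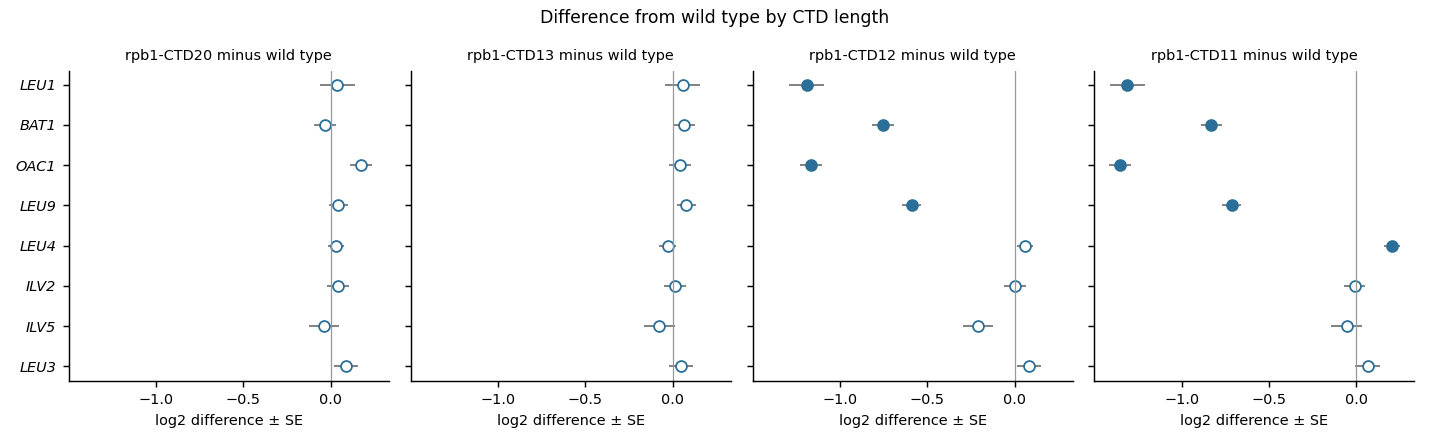
Log2 difference from wild type (x axis) of each of the 8 genes (y axis) in the truncations with 20, 13, 12 and 11 repeats. Points are fitted differences, bars their SE, and filled points passed an adjusted p under 0.01. At 20 and 13 repeats every point is open and between -0.08 and 0.17, and at 12 and 11 repeats *LEU1*, *BAT1*, *OAC1* and *LEU9* are filled and between -1.35 and -0.59.

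The change set in between 13 and 12 repeats. The mitochondrial gene *OLI1* changed at the same step, from 0.19 and 0.17 in *rpb1-CTD13* to -4.92 and -5.29 in *rpb1-CTD12*. Its part in the values of the members was not tested. At 13 repeats, *LEU1* was at 0.07 and 0.01, *OAC1* at -0.21 and -0.33, *BAT1* at -0.27 and -0.21 and *LEU9* at -0.06 and -0.08. Each of these values lay within or just above the wild type range. None of the 8 members passed in *rpb1-CTD13* (5.85% of all probes did), in *rpb1-CTD20* (0.376%) or in *RPB1-CTDWT* (0.141%), by the limma fit. At an unadjusted p under 0.05 the counts of members were 0, 1 and 0, the 1 being *OAC1* in *rpb1-CTD20*, at 0.17 ± 0.06 (adjusted p = 0.21). The step from 13 to 12 repeats, a comparison chosen after the values were seen, lowered 4 members, where 9.82% of all probes were lower, and 3 of them by more than 1.7-fold, where 0.313% were. It was -1.25 ± 0.13 for *LEU1* (adjusted p = 1.3e-06), -1.20 ± 0.08 for *OAC1* (adjusted p = 8.4e-09), -0.82 ± 0.08 for *BAT1* (adjusted p = 6.6e-07) and -0.67 ± 0.07 for *LEU9* (adjusted p = 1.3e-06). With the arrays scaled on their spiked-in control spots, the median of all gene probes in *rpb1-CTD13* moved to -0.56, the 8 members with it, and relative to that median *LEU1* was at -0.06 and *OAC1* at -0.02. Under that scaling the step from 13 to 12 repeats was -1.16 for *LEU1* and -1.08 for *OAC1* relative to the median of all probes, which moved by 0.50, and no member passed.

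None of the 8 passed between *rpb1-CTD11* and *rpb1-CTD12*, where 7.76% of all probes did, and the differences ranged from -0.19 for *OAC1* to 0.15 for *ILV5*. *OAC1* and *LEU4* were at an unadjusted p under 0.05, with adjusted p of 0.13 and 0.10. The interval of the difference was -0.39 to 0.14 for *LEU1* and -0.24 to 0.09 for *BAT1*. For *LEU9* the call depended on the b array of *rpb1-CTD11*, without which the difference of -0.13 became -0.28 (adjusted p = 0.0026).

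Ordered by its mean, *LEU1* was lowest in *rpb1-CTD11* (-1.33), followed by *rpb1-CTD12 cdk8Δ* (-1.28), *rpb1-CTD12* (-1.21) and *rpb1-CTD11 cdk8Δ* (-0.94). A gap separated these from wild type 330 rpm (-0.31), *RPB1-CTDWT* (-0.09), wild type (-0.02), *rpb1-CTD20* (0.02) and *rpb1-CTD13* (0.04). The arrays of *rpb1-CTD12 cdk8Δ* spanned those of both single mutants, and the arrays of the 3 groups next to wild type lay within its range. The widest step between neighbours was from *rpb1-CTD11 cdk8Δ* to wild type 330 rpm, from -0.97 and -0.91 to -0.25 and -0.36.

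The wild type labelled 330 rpm served as the control of the double mutants. None of the 8 members passed between it and the other wild type, where 4.46% of all probes did, and 2 had an unadjusted p under 0.05. *LEU1* was 0.29 ± 0.10 lower on the log2 scale (adjusted p = 0.061) and *LEU4* was 0.12 ± 0.05 higher (adjusted p = 0.083). The lower *LEU1* of this control makes the differences of the double mutants from it smaller than those from the other wild type.

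In the double mutants 7 of the 8 members were below wild type 330 rpm, all but *LEU3*. In *rpb1-CTD11 cdk8Δ* 7 were lower and 0 higher, where 13.2% of all probes were lower and 15.2% higher. In *rpb1-CTD12 cdk8Δ* 7 were lower and 0 higher, where 11.2% were lower and 15.6% higher, and 3 of them (*LEU1*, *OAC1* and *ILV5*) were decreased by more than 1.7-fold, where 0.861% of all probes were. The median of the 8 was -0.41 and -0.49, and the median of all probes was 0.01 in both.

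**Figure D3:**
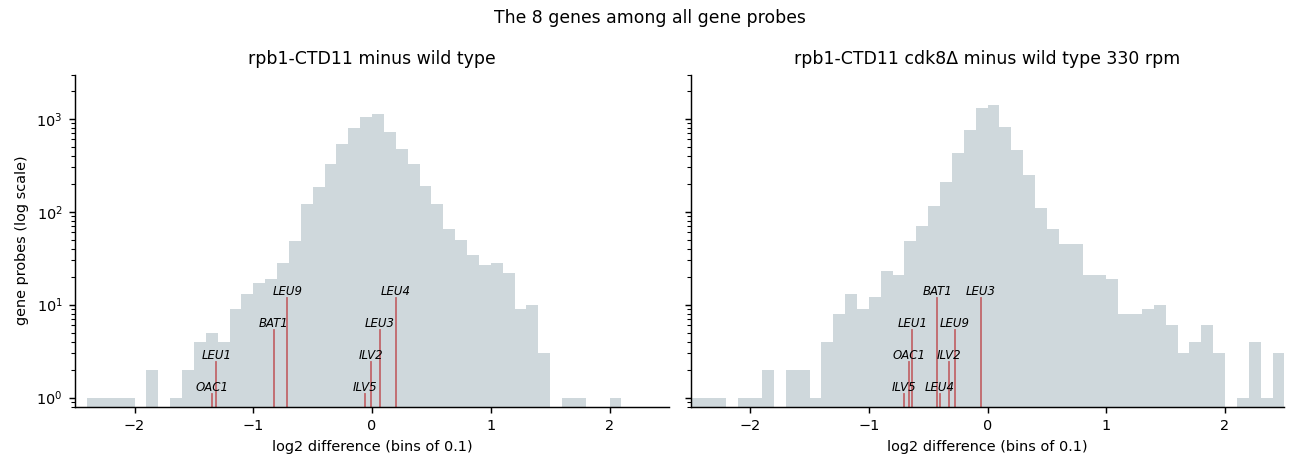
Distribution of the log2 difference over all 6388 gene probes (x axis, bins of 0.1, cut at -2.5 and 2.5; y axis, number of probes on a log scale) for *rpb1-CTD11* minus wild type and *rpb1-CTD11 cdk8Δ* minus wild type 330 rpm. Red lines mark the 8 genes, and their height only spaces the names. In *rpb1-CTD11* 4 lines lie at -0.71 or lower and 4 between -0.06 and 0.20, and in the double mutant 7 lie between -0.70 and -0.28.

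*LEU1*, *OAC1* and *BAT1* stayed low without *CDK8*. *LEU1* was at -0.97 and -0.91 in *rpb1-CTD11 cdk8Δ* and at -1.45 and -1.10 in *rpb1-CTD12 cdk8Δ*, against -0.25 and -0.36 in wild type 330 rpm. The difference was -0.64 ± 0.13 (adjusted p = 0.00056) and -0.97 ± 0.13 (adjusted p = 7.9e-06), and the value at 11 repeats was -0.57 (adjusted p = 0.012) without the a array of wild type 330 rpm. Against the other wild type the differences were -0.92 and -1.26.

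*OAC1* was at -0.98 and -0.88 in *rpb1-CTD11 cdk8Δ*, -1.26 and -1.02 in *rpb1-CTD12 cdk8Δ* and -0.26 and -0.27 in wild type 330 rpm, a difference of -0.66 ± 0.08 (adjusted p = 2.7e-06) and -0.87 ± 0.08 (adjusted p = 1.2e-07). *BAT1* was at -0.78 and -0.77, -0.96 and -0.83, and -0.31 and -0.39 in the same groups, a difference of -0.42 ± 0.08 (adjusted p = 0.00028) and -0.54 ± 0.08 (adjusted p = 2.4e-05). For each of these genes all 4 double mutant arrays were below both control arrays. From the deposited log2 ratios, in place of the scanner intensities, the difference of *BAT1* at 11 repeats was -0.20 (adjusted p = 0.065).

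*ILV5*, *ILV2* and *LEU4*, which had not passed as lower in the truncations, were lower in the double mutants. *ILV5* was at -0.77 and -0.82 in *rpb1-CTD11 cdk8Δ* and at -0.90 and -0.92 in *rpb1-CTD12 cdk8Δ*, against -0.07 and -0.11 in wild type 330 rpm. *ILV2* was at -0.36 and -0.34, -0.50 and -0.43, and 0.01 and -0.06 in these groups. *LEU4* was at -0.39 and -0.29, -0.30 and -0.30, and 0.05 and 0.08. No double mutant array of the 3 genes reached the level of a control array.

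The difference of *ILV5* from wild type 330 rpm was -0.70 ± 0.11 (adjusted p = 5.1e-05) at 11 repeats and -0.82 ± 0.11 (adjusted p = 1.1e-05) at 12. That of *ILV2* was -0.32 ± 0.08 (adjusted p = 0.0028) and -0.44 ± 0.08 (adjusted p = 2e-04), and that of *LEU4* was -0.40 ± 0.06 (adjusted p = 2.2e-05) and -0.36 ± 0.06 (adjusted p = 7e-05). *LEU9*, already lower in the truncations, had differences of -0.28 ± 0.07 (adjusted p = 0.0031) and -0.25 ± 0.07 (adjusted p = 0.0077). The calls of *LEU9* in both double mutants, and that of *ILV2* at 11 repeats, were lost when any 1 of the 4 arrays compared was left out, with values from -0.20 to -0.30 for *LEU9* and from -0.29 to -0.36 for *ILV2*, and from the deposited log2 ratios *ILV2* was at -0.17 (adjusted p = 0.037).

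The members moved in opposite directions when each double mutant was set against its own single mutant. These strains also differed at *MET17* and *OLI1* (values below), and the part of those differences in the values of the members was not tested. At 11 repeats 3 members were higher without *CDK8* (*OAC1*, *LEU9* and *BAT1*), where 19.7% of all probes were, and 3 were lower (*ILV5*, *LEU4* and *ILV2*), where 18.9% were. At 12 repeats 2 were higher (*OAC1* and *LEU9*), where 17.5% of all probes were, and the same 3 were lower, where 14.9% were. With only 8 genes, nothing particular to the set can be read from these counts.

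**Figure D4:**
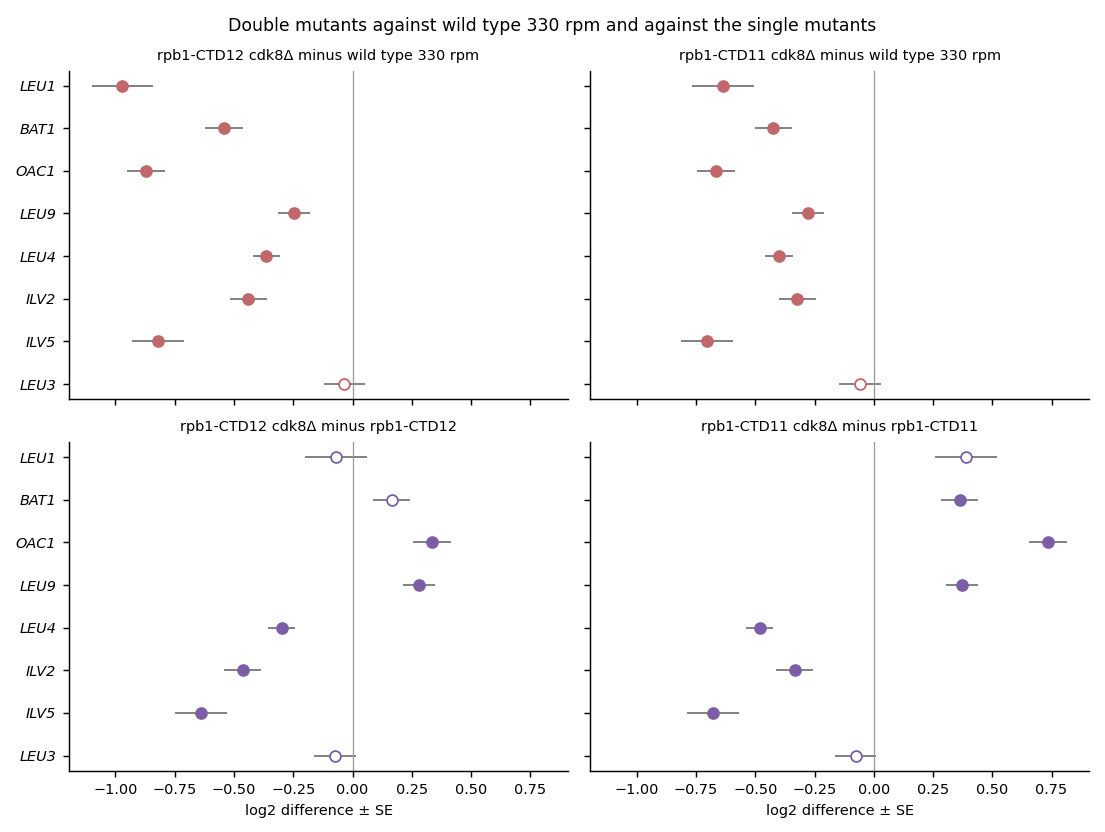
Log2 difference (x axis, bars are SE) of the 8 genes (y axis) in the double mutants, against wild type 330 rpm in the upper panels and against the single mutant of the same CTD length in the lower panels. Filled points passed an adjusted p under 0.01. All genes but *LEU3* are filled and below 0 in the upper panels, and in the lower panels *OAC1* and *LEU9* are above 0 and *LEU4*, *ILV2* and *ILV5* below 0.

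*OAC1* rose by 0.73 ± 0.08 (adjusted p = 4.6e-07) at 11 repeats and by 0.34 ± 0.08 (adjusted p = 0.0022) at 12, from means of -1.66 and -1.47 in the single mutants to -0.93 and -1.14. *LEU9* rose by 0.37 ± 0.07 (adjusted p = 0.00016) and 0.28 ± 0.07 (adjusted p = 0.0026). Its call at 12 repeats held in only 3 of 10 alternatives of processing or fit, with differences from 0.22 to 0.54. *BAT1* rose by 0.36 ± 0.08 (adjusted p = 0.00082) at 11 repeats. At 12 it had 0.17 ± 0.08 (adjusted p = 0.097), where the deposited log2 ratios gave 0.40 (adjusted p = 0.00087). *LEU1* had 0.39 ± 0.13 (adjusted p = 0.016) at 11 repeats and -0.07 ± 0.13 (adjusted p = 0.69) at 12, and neither passed, although the former had an adjusted p of 0.0096 with the sets of wild type arrays as a random block. At 12 repeats the call of *OAC1* was lost without the a array of *rpb1-CTD12* (0.29, adjusted p = 0.032) or the b array of *rpb1-CTD12 cdk8Δ* (0.21, adjusted p = 0.078), the call of *LEU9* at 12 without any but the a array of *rpb1-CTD12 cdk8Δ* (0.23 to 0.28), and the call of *BAT1* at 11 without the a array of *rpb1-CTD11* (0.20, adjusted p = 0.038).

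*ILV5* fell by 0.68 ± 0.11 on the log2 scale (adjusted p = 4.7e-05) at 11 repeats and by 0.64 ± 0.11 (adjusted p = 0.00012) at 12. *ILV2* fell by 0.33 ± 0.08 (adjusted p = 0.0015) and 0.46 ± 0.08 (adjusted p = 1e-04), and *LEU4* by 0.48 ± 0.06 (adjusted p = 1.5e-06) and 0.30 ± 0.06 (adjusted p = 0.00039). *LEU3* differed by -0.08 ± 0.09 and -0.07 ± 0.09. The call of *ILV2* at 11 repeats was lost without 3 of the 4 arrays, each in turn, the smallest difference being -0.20 (adjusted p = 0.059) without the b array of *rpb1-CTD11*, and that of *LEU4* at 12 without the b array of *rpb1-CTD12* (-0.25, adjusted p = 0.013). The labels give no separate shaking speed for the single and the double mutants.

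Whether the members responded differently to loss of *CDK8* at 11 and at 12 repeats was tested as an interaction, the difference of both differences. None of the 8 members passed, where 2.29% of all probes did, and 3 had an unadjusted p under 0.05. *OAC1* had a response 0.40 ± 0.11 larger at 11 repeats (adjusted p = 0.043), *LEU1* had a difference of 0.46 ± 0.18 (adjusted p = 0.14) and *LEU4* one of -0.18 ± 0.08 (adjusted p = 0.21). Without the b array of *rpb1-CTD12 cdk8Δ* the value of *OAC1* was 0.53 (adjusted p = 0.0076).

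Over the 9 group means, *LEU1*, *BAT1*, *OAC1* and *LEU9* ran together, with Pearson's r between 0.93 and 0.98 for each pair. *ILV2* and *ILV5* formed another pair, with r = 0.97, and *LEU4* was closer to them (0.79 and 0.85) than to *LEU9* (-0.16). *LEU3* had r between -0.11 and 0.08 with *LEU1*, *BAT1*, *OAC1* and *LEU9*, and between 0.59 and 0.69 with *LEU4*, *ILV2* and *ILV5*, on a range of group means of only 0.02 to 0.12. The 9 points share the reference RNA, and 4 of them share the short CTD, so these values describe the profiles and carry no test.

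The genes outside the lists whose profile was most like the mean profile of *LEU1*, *BAT1* and *OAC1* over the 9 groups were YPR015C (r = 0.99), *GIS2*, *SPE3*, YGL149W and *FSF1* (r = 0.98 each). *SPE3* encodes spermidine synthase. Their differences from wild type in *rpb1-CTD11* were -0.77, -0.34, -0.63, -0.25 and -0.49, smaller than those of *LEU1* and *OAC1*. At 13 repeats they were between -0.05 and 0.09.

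The other genes of the pathway were counted by list, beside 24.9% of all probes lower and 24.3% higher in *rpb1-CTD11*, 17.4% and 18.6% in *rpb1-CTD12*, 13.2% and 15.2% in *rpb1-CTD11 cdk8Δ*, and 11.2% and 15.6% in *rpb1-CTD12 cdk8Δ*. With 3 to 6 genes a list, nothing particular to a list can be read from these counts. Of the 5 other synthesis genes (*LEU2*, *ILV1*, *ILV3*, *ILV6* and *BAT2*), 1 was lower and 1 higher in each of *rpb1-CTD11* and *rpb1-CTD12*, and 2 were lower in each double mutant against wild type 330 rpm. None of these, or of the genes for uptake, breakdown and tRNA charging below, passed the test together with a 1.7-fold change in any of the 13 comparisons, and those named here were named after their values were seen. *ILV3*, the dihydroxyacid dehydratase after Ilv5, was the lower one, with -0.29 ± 0.07 (adjusted p = 0.0021) at 11 repeats, -0.43 ± 0.07 (adjusted p = 1e-04) at 12, and -0.50 and -0.49 in the double mutants. *ILV6*, the regulatory subunit of acetolactate synthase, was the higher one, with 0.32 ± 0.05 (adjusted p = 6e-06) and 0.25 ± 0.05 (adjusted p = 0.00017).

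Among 3 further genes known as targets of Leu3, *GDH1*, the NADP-dependent glutamate dehydrogenase, fell and *BAP2*, a leucine permease, rose. *GDH1* was between -0.01 and 0.23 in wild type, at -0.53 and -0.76 in *rpb1-CTD11* and at -0.50 and -0.45 in *rpb1-CTD12*, with differences of -0.70 ± 0.08 (adjusted p = 6.3e-07) and -0.53 ± 0.08 (adjusted p = 3.3e-05). In *rpb1-CTD11 cdk8Δ* it was at 0.12 and 0.11, within the wild type range and 0.76 ± 0.10 above *rpb1-CTD11* (adjusted p = 5.1e-06), on arrays where *LEU1* was at -0.97 and -0.91. In *rpb1-CTD12 cdk8Δ* it was at -0.53 and -0.15, against -0.21 and -0.15 in wild type 330 rpm. *BAP2* differed from wild type by 0.19 ± 0.05 (adjusted p = 0.0019) and 0.33 ± 0.05 (adjusted p = 1.3e-05), and *MAE1*, the malic enzyme, by -0.10 and 0.04 (adjusted p = 0.17 and 0.63).

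Of the 5 permeases of branched-chain amino acids (*BAP2*, *BAP3*, *TAT1*, *AGP1* and *GNP1*), 2 were lower and 1 higher in *rpb1-CTD11*, 1 lower and 1 higher in *rpb1-CTD12*, and in the double mutants 2 and 3 were higher and 0 lower. *TAT1* was the lowest, at -0.62 ± 0.06 in *rpb1-CTD11* (adjusted p = 1.3e-07). Of 6 genes of breakdown and fusel alcohol formation, 3 were lower in each short truncation, 1 was higher in *rpb1-CTD11*, and 2 and 3 were lower in the double mutants. *PDC1* and *PDC5* of this list, paralogs that both encode pyruvate decarboxylase, had signals up to 65240, near the top of the scanner's range. Of the 3 synthetases that charge tRNA with these amino acids, 0 passed in the truncations, and 1 and 3 were lower in the double mutants at 11 and 12 repeats.

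*GCN4* mRNA was at -0.42 ± 0.08 (adjusted p = 4e-04) without *CDK8* at 12 repeats and -0.31 ± 0.08 (adjusted p = 0.0042) at 11, each against the single mutant. Against wild type it differed by 0.05 and 0.02 in *rpb1-CTD11* and *rpb1-CTD12* (adjusted p = 0.50 and 0.80). Against wild type 330 rpm it was at -0.34 (adjusted p = 0.0027) in *rpb1-CTD12 cdk8Δ* and -0.20 (adjusted p = 0.060) in *rpb1-CTD11 cdk8Δ*. *GCN4* mRNA thus passed as lower in 3 of the 4 comparisons in which *ILV5*, *ILV2* and *LEU4* were lower, and its part in them was not tested. The arrays do not measure Gcn4 protein, and the paper cites earlier reports that this protein is stabilized when Cdk8 is lost.

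The strains differed at marker genes that bear on amino acid synthesis. *LEU2* was between 0.583 and 1.69 times the background limit on all arrays, was above it on 22 of 24, and had group means between -0.10 and 0.11. *LYS2* was 2.36 to 3.48 on every truncation and double mutant array and -0.10 to 0.14 on those of the strains with a full-length CTD. *MET17* was -4.98 to -4.42 in *rpb1-CTD20*, *rpb1-CTD13* and *rpb1-CTD12*, 0.94 and 1.20 in *rpb1-CTD11*, and -0.40 to -0.05 in the double mutants. The histidine gene *HIS3* was -0.57 to -0.33 in the double mutants and -0.10 and -0.07 in wild type 330 rpm. It was at 0.04 and 0.34 in *rpb1-CTD11*, against -0.25 to -0.10 in wild type. *LEU1* was at wild type level in strains with high *LYS2* and low *MET17* (*rpb1-CTD20* and *rpb1-CTD13*), and was low in strains with low *MET17* (*rpb1-CTD12*), raised *MET17* (*rpb1-CTD11*) and *MET17* between -0.40 and -0.05 (the double mutants). All strains in which *LEU1* was low had high *LYS2*, and the part of the marker genes in the values of the members was not tested.

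**Figure D5:**
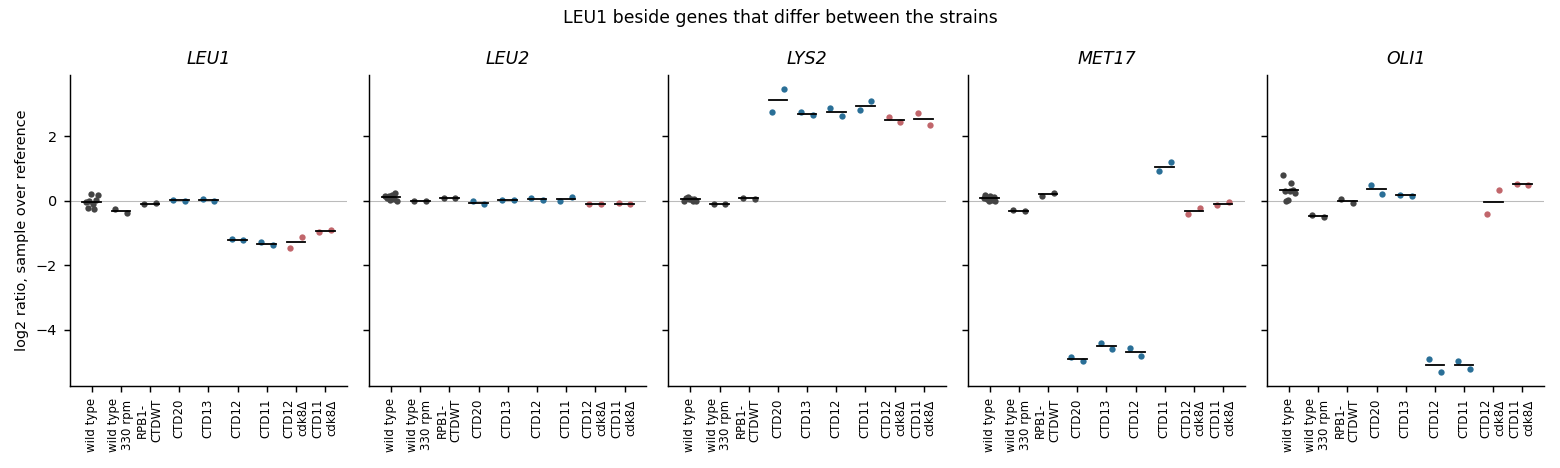
Log2 ratio of sample over reference (y axis) of *LEU1* beside *LEU2*, the lysine gene *LYS2*, the sulfhydrylase gene *MET17* and the mitochondrial gene *OLI1* on every array, by group (x axis). Points are arrays and bars group means, coloured grey for full-length CTD, blue for truncations and red for double mutants. *LEU1* is low in the 4 groups on the right of each panel, and *LYS2* is high in the 6 on the right. *OLI1* is at -4.92 or lower in *rpb1-CTD12* and *rpb1-CTD11*, and between -0.50 and 0.79 in the other groups.

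Mitochondria house most of this pathway. Transcripts of their genome were lower than wild type in *rpb1-CTD12* and *rpb1-CTD11*, as were *LEU1*, *BAT1*, *OAC1* and *LEU9*. No mitochondrial transcript passed as lower in the double mutants against wild type 330 rpm. In that control several of these transcripts were themselves lower than in the other wild type. *OLI1*, a subunit of the mitochondrial ATP synthase, was between 0.01 and 0.79 in wild type, at -4.98 and -5.22 in *rpb1-CTD11* and at -4.92 and -5.29 in *rpb1-CTD12*. In *rpb1-CTD11 cdk8Δ* it was at 0.54 and 0.50 and in *rpb1-CTD12 cdk8Δ* at -0.41 and 0.33, on arrays where *LEU1* was between -1.45 and -0.91, and in wild type 330 rpm at -0.43 and -0.50. The 8 protein-coding genes of this genome on the platform were a list added after the values were seen. Of these, 6 were lower in *rpb1-CTD11* and 6 in *rpb1-CTD12*, where 24.9% and 17.4% of all probes were. In *rpb1-CTD13* and *rpb1-CTD20* 0 were lower. In the double mutants 0 were lower than wild type 330 rpm, where 13.2% and 11.2% of all probes were at 11 and 12 repeats. Against that control *OLI1* was higher in *rpb1-CTD11 cdk8Δ* by 0.98 (adjusted p = 0.0016). In wild type 330 rpm itself 4 of the 8 genes were lower than in the other wild type, where 128 of 6388 probes were. The *OLI1* values of *rpb1-CTD11 cdk8Δ* lay within the range of that other wild type. Against the single mutants, 5 were higher without *CDK8* at 11 repeats, where 19.7% of all probes were, and 3 at 12, where 17.5% were. In these comparisons *OAC1* and *LEU9* also rose, *BAT1* rose at 11 repeats, and *LEU1* did not pass. *COB* was above background on 0 of 24 arrays and *COX3* on 10. On every array of *rpb1-CTD12* and *rpb1-CTD11*, *COX3*, *ATP6*, *ATP8* and *VAR1* were below background. Only *OLI1* and *ATP8* passed with a 1.7-fold change in these strains. The part of these transcripts in the values of the members was not tested.

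The alpha identity of the strains was read from *STE3*, *MF(ALPHA)1*, *MF(ALPHA)2* and *SAG1*, all above background on 24 arrays. Of the 4, 4 were lower in *rpb1-CTD11* (median difference -1.83), in *rpb1-CTD12* (-0.75) and in *rpb1-CTD11 cdk8Δ* (-1.06), and 3 in *rpb1-CTD12 cdk8Δ* (-0.46). Of all probes 24.9%, 17.4%, 13.2% and 11.2% were lower in these groups, in this order. In *rpb1-CTD13* and *rpb1-CTD20* 0 of the 4 were lower. The arrays of *rpb1-CTD12 cdk8Δ* differed from each other, with *SAG1* at 0.13 and -0.68 and *MF(ALPHA)2* at -0.42 and -1.31. The 5 a cell markers had signals of at most 4.42 times the background limit. In *rpb1-CTD12 cdk8Δ* 2 were higher against wild type 330 rpm (15.6% of all probes) and 3 against *rpb1-CTD12* (17.5%). In each short truncation 1 was lower (24.9% of all probes at 11 repeats, 17.4% at 12), and 1 was higher in *rpb1-CTD11* (24.3%). With only 5 genes, nothing particular to the a cell markers can be read from these counts. The alpha markers and the members *LEU1*, *OAC1* and *BAT1* were thus lowered in the same groups, and the part of either in the other was not tested.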

How the data were processed

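Per the labels, the authors scanned 2-colour arrays of 15552 spots, and the deposited scanner files give the mean and median intensity of each spot and of its background, not normalized. The deposited series table holds the authors' log2 ratios, normalized by print-tip loess with limma 2.12.0 and corrected for dye bias. It correlated with sample over reference at 0.658 to 0.952 and was used as an alternative. The table of the authors' fold changes and p-values was not used.

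Here, the intensities were corrected by normexp (offset 50) and normalized within arrays by loess on the gene spots (span 0.3), and duplicate spots were averaged. All 24 arrays were fitted in limma 3.58.1 (R 4.3.3) by group means plus an effect of the dye. The Benjamini-Hochberg adjustment ran over 6388 gene probes, and an adjusted p under 0.01 passed. The letters a and b mark the dye orientation, and a minus b correlated at 0.621 to 0.927 between groups (28 pairs), so the dye term serves as the replicate block. The design text gives the opposite dye order from the sample labels, and the labels were used. On simulated data for *rpb1-CTD11* against wild type, 99 of 100 probes changed 1.5-fold and 99 of 100 changed 3-fold were recovered among 6388 probes. The simulated noise was independent between arrays and drawn from the same model that was then fitted. This recovery therefore does not measure how real cultures vary. The number of arrays limits the precision.

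The members, lists and comparisons were chosen with earlier results of these data known. All 8 members are named. Genes of other lists are named if they passed with a 1.7-fold change, or are strain markers or targeted genes, and otherwise as chosen after their values were seen. The 5 genes of like profile have the highest r outside all lists. The files name no genome build, and no sequences were analysed here.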

Additional observations from a re-analysis of the deposited data

How the results depend on the processing

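Over 1872 alternative values of single members, 1769 kept their direction and side of the threshold, 90 lost the call, 6 gained one and 7 turned direction with a call on either side. Sign changes in which neither value passed are counted as kept. The counts of members past the adjusted p were within 1.5 times the main count in 216 of 234 alternatives. The falls of *LEU1* and *OAC1* in *rpb1-CTD11* and *rpb1-CTD12* passed under all alternatives run.

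Loess on the spiked-in control spots moved the median of all probes by -0.56 in *rpb1-CTD13*, -0.28 in *rpb1-CTD20*, 0.28 in wild type 330 rpm, -0.12 in *rpb1-CTD11 cdk8Δ* against wild type 330 rpm, 0.15 and 0.22 for loss of *CDK8* at 11 and 12 repeats, and 0.50 for *rpb1-CTD12* against *rpb1-CTD13*. Under it 8 members passed in *rpb1-CTD13*, 2 in *rpb1-CTD12*, and 0 in *rpb1-CTD12* against *rpb1-CTD13*, in both double mutants against wild type 330 rpm and against the single mutants. The differences whose calls were lost were not all smaller, with *BAT1* at -0.88 in *rpb1-CTD12*, and *LEU1* at -0.77, *OAC1* at -0.82 and *ILV5* at -0.75 in *rpb1-CTD11 cdk8Δ* against wild type 330 rpm. In *rpb1-CTD13* it turned *LEU1* to -0.62, *BAT1* to -0.63, *OAC1* to -0.58, *LEU9* to -0.56, *ILV2* to -0.66 and *LEU3* to -0.49, all near the shift of all probes, and *LEU4* in *rpb1-CTD12 cdk8Δ* against *rpb1-CTD12* to 0.008 (adjusted p = 0.99). The cause was not tested.

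With no replicate block (no dye term), 3 of 7 members passed in *rpb1-CTD11 cdk8Δ* against wild type 330 rpm, 3 of 6 against *rpb1-CTD11* and 2 of 5 for loss of *CDK8* at 12 repeats. Fitted on only the groups compared, 1 of 6 passed for loss of *CDK8* at 11 repeats, and with median centring 3 of 5 passed at 12. With an array left out in turn the counts were 4 to 5 for *rpb1-CTD11* and 4 for *rpb1-CTD12* against wild type, 4 to 5 and 6 for the double mutants at 11 and 12 repeats against wild type 330 rpm, 5 and 3 to 5 for loss of *CDK8* at 11 and 12, 0 to 1 for *rpb1-CTD11* against *rpb1-CTD12*, and 0 to 1 for the contrast of the responses. A group left with 1 array is assumed to vary like the others. The search of promoters for Leu3 and Gcn4 motifs was not run.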
